A study of Homo sapiens with 3 samples.

Results

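Forkhead genes encode transcription factors that share one DNA-binding domain, the forkhead or winged helix. They were measured here in C4-2, an androgen-independent prostate adenocarcinoma line derived from LNCaP, by sequencing of ribosome-depleted total RNA. The members were taken by name: protein-coding genes of the count files whose symbol is FOX, then a letter from A to S, then a number. The rule found 52 of 19708 protein-coding genes and of 58302 genes in all. One of the 52, FOXL2NB, carries the name of its neighbour FOXL2 and is not known to encode a forkhead domain. The 3 libraries are replicates 1, 2 and 3 of unmodified, wild-type cells, and they form 1 group, so no conditions were compared. The study also concerns neuroendocrine-like lines and depletion of neuropilin-2; those samples were not analysed here.

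Forkhead factors are sorted into lettered subfamilies by their DNA-binding domain. FOXA proteins are pioneer factors that open compacted chromatin, and FOXA1 is the family member best known for its part in the identity of luminal prostate epithelium. FOXM1 drives mitotic genes, FOXO proteins are held out of the nucleus by AKT phosphorylation, FOXP proteins are mainly repressors, and many of the remaining subfamilies pattern embryonic tissues.

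The recognition helix of the domain lies in the major groove of DNA and carries a short stretch that nearly all members share. A script translated the coding sequence of each GENCODE canonical transcript, searched it for this stretch and took the 30 coding bases, 10 codons, beneath it. The match was unique in 48 of 52 members. FOXH1, FOXR2, FOXO3B and FOXL2NB gave no match to the pattern. The sequences below are those of members from some of the subfamilies and are shown to make visible how alike paralogs are. They read 5′ to 3′ on the coding strand, and capitals mark bases that differ from FOXD4, which has none.
FOXD4: tggcagaacagcatccgccacaacctctcg
FOXD4L4: tggcagaacagcatccgccacaacctctcg
FOXC1: tggcagaacagcatccgccacaacctctcg
FOXK1: tggcagaaTTCTatccgGcacaacctctcT
FOXK2: tggcagaaTTCAatTcgccacaaTctctcT
FOXO3: tggAagaacTCcatccgGcacaacctGtcA
FOXO6: tggAagaacTCcatccgGcacaacctGtcg
FOXO1: tggAagaaTTCAatTcgTcaTaaTctGtcC
FOXJ2: tggAagaaTTCAatAcgGcacaacctTtcT
FOXJ3: tggAagaaTTCcatAcgAcaTaaTctGtcA
FOXP4: tggAagaacGCcGtGcgccacaacctcAGC
FOXN3: tggAaAaacTCAGtGAgAcacaaTTtAtcA
The FOXD4 stretch covers codons 148 to 157, at chr9:117649-117678 on the minus strand of GRCh38. Across the 48 members, between 16 and 30 of the 30 bases were the same as in FOXD4. The encoded residues fell into 10 sets: 22 members, among them FOXC1, FOXK1, FOXK2, and all FOXD and FOXI genes, shared one, 7 members (FOXJ2, FOXJ3, FOXM1, FOXO1, FOXO3, FOXO4 and FOXO6) another, and FOXA1, FOXA2 and FOXA3 had a set of their own. FOXC1, FOXC2, FOXD1, FOXL1, FOXD4 and the copies FOXD4L1, FOXD4L3, FOXD4L4, FOXD4L5 and FOXD4L6 were identical over all 30 bases. The codons were split by an intron in 14 members and lay in 1 exon in the other 34. A mean of 1 TPM, a measure of level explained next, was reached by 12 of the 14 and by 10 of the 34. With gene length counted in 32-base stretches found once in the genome these counts were 12 and 15. The difference was not tested.

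TPM is the number of reads per exon length, scaled to the same total in every library, so it allows levels of different genes to be compared. The libraries held 51200272, 47513470 and 49965601 reads assigned to genes, and forkhead genes took 0.171%, 0.171% and 0.173% of them. The labels leave unsaid whether the replicates are separate cultures; p-values therefore speak only of how far these libraries lie apart, and that may be technical. Counts were mostly even numbers: of genes with 2 to 20 reads, 81.7%, 78.7% and 84.5% had an even count in replicates 1, 2 and 3, as had 14 of 16, 12 of 13 and 11 of 12 forkhead genes in that range. Counting both mates of a fragment gives even counts and the sources used here do not say whether reads were paired. All 9 luminal markers were detected, among them EPCAM at 81.2, KRT8 at 221, KRT18 at 324 and KLK3 at 1439.7 TPM. Of other cell types, 3 of 5 basal markers (TP63 and KRT5 at 0 reads) and 2 of 9 stromal and endothelial markers were detected (VWF at 3.68 TPM and PDGFRB at 1.17 TPM; COL1A2 at 0 reads), with summed levels of 3.27 to 3.87 and 5.21 to 5.35 TPM over the libraries. Of 7 neuroendocrine markers 6 were detected, with ENO2 at 12.3 TPM, CHGA at 2.53 TPM, SYP at 2.29 TPM and NEUROD1 at 0 reads, and a summed level of 17.9 to 19.3 TPM.

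Most forkhead genes were low, and a few were among the more abundant transcripts of the cell. Detection was set at 10 or more reads in each of the 3 libraries. By that rule 36 of 52 members (69.2%) were detected, against 71.8% of all protein-coding genes. A mean of 1 TPM was reached by 24 members (46.2%), against 62.7% of protein-coding genes, and 10 TPM by 12 members (23.1%), against 42.9%. All 3 libraries gave 0 reads for 5 members (9.62%), against 13.1% of protein-coding genes. The median level of the 52 members was −0.15 ± 0.0869 (SD over libraries, n = 3) on the log2(TPM + 0.1) scale, below 2.46 ± 0.0336 for all protein-coding genes. Of the 28 members under 1 TPM, 12 were detected, 11 had reads but fell short in at least 1 library, and 5 had none.

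**Figure D1:**
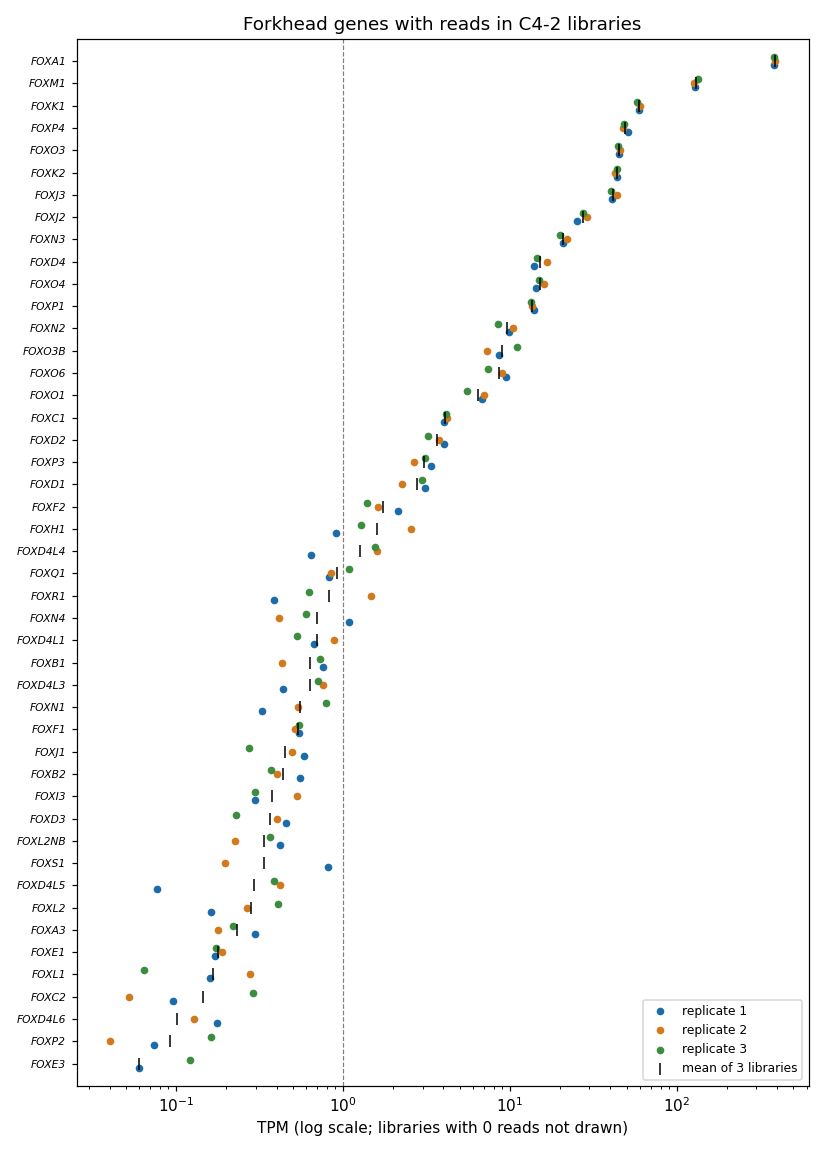
Level of the forkhead genes with reads (1 not drawn), in TPM on a log axis, with 1 point per library (libraries at 0 reads not drawn) and a black bar at the mean; the dashed line marks 1 TPM. FOXA1, at 386 TPM, stands apart at the top, and the points of a gene spread wider below 1 TPM.

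FOXA1 alone made up 42.4 ± 0.0705% of the summed TPM of the forkhead genes (SD, n = 3). That SD covers libraries only, not the way length is counted. With length counted in 32-base stretches found once, FOXA1 lay at 405 TPM. Summed FOXO levels then rose from 84.3 to 181 TPM and FOXD levels from 24.9 to 147 TPM, so the FOXA1 share was smaller. The 3 libraries held 25687, 23849 and 25579 reads of FOXA1, or 384, 389 and 385 TPM, a level above that of 98.8% of protein-coding genes. FOXA1 is annotated on chromosome 14 (37589984 to 37596059, minus strand) of GRCh38, and 0.402% of its exon bases overlap TTC6 on the opposite strand, which lay at 43.6 TPM. The other pioneer factors of the subfamily were at the bottom of the scale. FOXA3 had 11, 6 and 8 reads, or 0.232 ± 0.0616 TPM (SD, n = 3), and was not detected. FOXA2, a FOXA gene of endoderm and of neuroendocrine prostate tumours, had 0 reads in every library. A count of 0 allows up to 3 reads, which is 0.0748 TPM of FOXA2 in the smallest library, or 0.150 TPM if 6 reads stand for 3 fragments; such limits cover counting error only. Set against the 3-read limit in the same library, FOXA1 was at least 5197-fold higher, and at least 2598-fold higher against 6 reads. FOXA1 exceeded FOXA3 by 10.20 ± 0.272 on the log2(TPM + 0.1) scale, with the same sign in 3 of 3 libraries. For this and 9 other pairs of paralogs an exact permutation test that flips the sign of each library's difference (two-sided) gave p = 0.25, the smallest that 3 libraries allow, and an adjusted p of 0.25 over the 10 pairs, so none could pass 0.05.

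FOXM1, the mitotic factor, ranked second. It had 10560, 9619 and 10965 reads, or 128, 127 and 134 TPM, with replicate 3 above the other two, and is annotated on chromosome 12 (2857681 to 2877155, minus strand). Of its exon bases 15.9% overlap ITFG2 on the opposite strand, at 9.76 TPM. The counting ignored strand and dropped reads that fell on exons of both genes, so FOXM1 reads from that stretch are missing. RHNO1 (40.9 TPM) and TULP3 (31.6 TPM), both on the opposite strand, overlap its gene body or lie 68 bases from it.

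FOXK factors, which recruit chromatin complexes and repress autophagy and catabolic genes, were both abundant. FOXK1 had 13015, 12165 and 12619 reads, or 59.2, 60.3 and 57.7 TPM, and FOXK2 had 7375, 6605 and 7340 reads, or 43.6 ± 0.610 TPM (SD, n = 3). The libraries of the 2 genes did not overlap, and FOXK1 exceeded FOXK2 by 0.44 ± 0.0501 on the log2(TPM + 0.1) scale in 3 of 3 libraries. The order turned, to −0.27, when each gene was scaled by its longest annotated transcript in place of its merged exons: FOXK1 then lay at 55.8 TPM and FOXK2 at 67.1 TPM. FOXK2 shares 14.1% of its exon bases with other genes on the opposite strand, 0.530% with WDR45B, which lay at 90.8 TPM, and 11.9% with a long non-coding gene at 0 reads.

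All 5 genes named FOXO were detected and lay above 1 TPM. FOXO proteins are effectors of insulin and AKT signalling, but FOXO3B gave no match to the recognition helix pattern. FOXO3 led with 5863, 5411 and 5764 reads, or 45.2, 45.5 and 44.7 TPM, and FOXO4 followed with 826, 847 and 862 reads, or 15.1 ± 0.845 TPM (SD, n = 3). FOXO6 had 8.61 ± 1.07 TPM (SD, n = 3) and FOXO1 6.46 ± 0.825 TPM. FOXO1 lay below FOXO3 in every library, by −2.79 ± 0.176 on the log2(TPM + 0.1) scale, and FOXO3 above FOXO4 by 1.58 ± 0.0757. FOXO3B, a near copy of FOXO3 on chromosome 17 (18670946 to 18672873, minus strand), had 280, 216 and 356 reads, or 8.65, 7.27 and 11.1 TPM.

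Levels of FOXO3 and FOXO3B are uncertain because much of their exon sequence is repeated in the genome. Of the 32-base stretches in FOXO3 exons, 60.2% occur more than once in hg38, and 18.2% occur in FOXO3B exons. Of those in FOXO3B exons, 72.7% occur in FOXO3. Reads that map to several places were dropped under the recorded counting options. Scaled to 32-base stretches found once, FOXO3 would lie at 116 TPM and FOXO3B at 33.6 TPM. These are high estimates wherever a longer read reaches unique sequence.

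FOXP genes, repressors that act as dimers, differed widely. FOXP4 had 5255, 4541 and 4942 reads, or 50.7, 47.8 and 48.0 TPM, and FOXP1 had 3179, 2856 and 3054 reads, or 13.9, 13.6 and 13.4 TPM. FOXP1 lay below FOXP4 by −1.83 ± 0.0281 on the log2(TPM + 0.1) scale. FOXP2, known for its part in speech and brain development, had 20, 10 and 44 reads over 16152 exon bases, or 0.0924 ± 0.0636 TPM (SD, n = 3), and FOXP1 exceeded it by 6.21 ± 0.476. FOXP3, the lineage factor of regulatory T cells, was detected with 149, 109 and 138 reads, or 3.05 ± 0.345 TPM. Of 8 other regulatory T cell markers, CD3D, CD3E, IL2RA and CTLA4 had 0 reads, PTPRC had 0, 2 and 0, CD4 had 40, 4 and 18, and only TNFRSF18 (8.95 ± 1.52 TPM) and IKZF2 (1.000 ± 0.147 TPM) were detected. FOXP3 overlaps CCDC22 on the opposite strand (38.6 TPM) over 3.44% of its exon bases, and reads that fell on exons of both genes were dropped. Whether unstranded reads of CCDC22 contribute to FOXP3 outside the shared bases was not tested.

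FOXJ and FOXN genes held the next places. FOXJ3 had 4719, 4625 and 4666 reads, or 40.8, 43.6 and 40.5 TPM, and FOXJ2 had 2680, 2823 and 2870, or 25.4, 29.1 and 27.3 TPM; FOXJ2 lay below FOXJ3 by −0.61 ± 0.0632 on the log2(TPM + 0.1) scale. FOXJ1, the master factor of motile cilia, had 26, 20 and 12 reads, or 0.450 ± 0.161 TPM. Of FOXN genes, which include checkpoint regulators, FOXN3 had 3859, 3725 and 3685 reads, or 20.9 ± 0.963 TPM (SD, n = 3), and FOXN2 had 9.60 ± 0.955 TPM. FOXN2 lay below FOXN3 by −1.12 ± 0.0877 in 3 of 3 libraries. FOXN4 and FOXN1, the latter the factor of thymic epithelium, were detected below 1 TPM, at 0.699 ± 0.345 and 0.551 ± 0.232 TPM.

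The FOXD subfamily stood out for FOXD4, an intronless gene on chromosome 9 (116231 to 118204, minus strand). FOXD4 had 463, 507 and 482 reads, or 14.0, 16.7 and 14.6 TPM, and was the only 1 of 18 single-exon members to reach 10 TPM. Its copies were lower: FOXD4L4 had 24, 55 and 58 reads, or 1.27 ± 0.542 TPM, FOXD4L1 had 28, 34 and 22 reads (0.695 TPM) and FOXD4L3 15, 24 and 24 (0.636 TPM), and FOXD4L5 and FOXD4L6, at 0.293 ± 0.188 and 0.101 ± 0.0908 TPM, were not detected. In these 6 genes between 76.1% (FOXD4) and 98.4% (FOXD4L3) of 32-base stretches occur more than once in the genome. Scaled to stretches found once, FOXD4 would lie at 64.2, FOXD4L3 at 40.5 and FOXD4L4 at 26.4 TPM, and FOXD4L5, FOXD4L1 and FOXD4L6 at 3.13, 3.07 and 2.17 TPM, so the order within these copies depends on how their length is counted. Among other FOXD genes, FOXD2 lay at 3.66 ± 0.416 and FOXD1 at 2.78 ± 0.460 TPM, and FOXD3, a neural crest factor, had 16, 13 and 8 reads and was not detected.

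**Figure D2:**
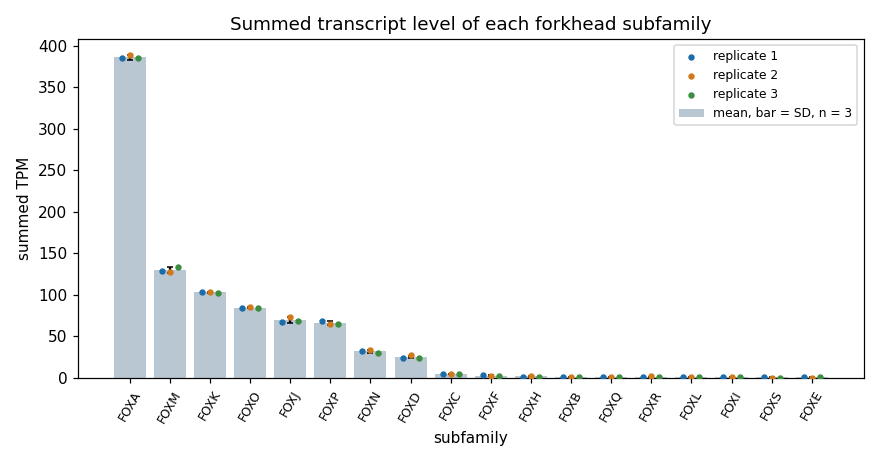
Summed TPM of the lettered subfamilies (y axis from 0; 1 of 19 not drawn), with the bar at the mean, its error bar the SD over 3 libraries, and 1 point per library. The FOXA bar at 386 TPM is FOXA1 almost alone; FOXM, FOXK and FOXO follow at 130.0, 103 and 84.3 TPM by merged-exon length. With length counted in 32-mers found once in hg38, FOXA lies at 405, FOXO at 181, FOXD at 147, FOXM at 145 and FOXK at 111 TPM.

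Developmental forkhead genes filled the lower part of the range. FOXC1, a factor of mesoderm and of invasive epithelial tumours, lay at 4.10 ± 0.0907 TPM (SD, n = 3) with 264, 253 and 270 reads, and FOXC2, with 4, 2 and 12 reads, at 0.146 ± 0.126 TPM; the difference was 4.21 ± 0.706 on the log2(TPM + 0.1) scale. FOXF2, a factor of mesenchyme, was detected at 1.73 ± 0.386 TPM. FOXH1, which carries nodal signals with SMAD proteins, had 38, 99 and 54 reads, or 1.59 ± 0.871 TPM. FOXH1 overlaps KIFC2 on the opposite strand over 31.6% of its exon bases, and KIFC2 lay at 26.1 ± 0.506 TPM. Reads that fell on exons of both genes were dropped, so FOXH1 reads from that stretch are missing. Whether unstranded reads of KIFC2 contribute to FOXH1 outside the shared bases was not tested.

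Just under 1 TPM came FOXQ1 at 0.919 ± 0.147 TPM, which together with FOXD4L4 at 1.27 TPM brackets that level. FOXB1, FOXF1, FOXI3, FOXL2NB and FOXE1 were also detected, between 0.178 and 0.639 TPM. FOXR1, FOXB2, FOXS1, FOXL2, FOXL1 and FOXE3 had some reads and were not detected, between 0.0604 and 0.828 TPM. FOXS1 had 18, 4 and 0 reads and FOXR1 had 8, 28 and 13, so 1 library held most of the reads of each. FOXI1, FOXI2, FOXL3 and FOXR2, like FOXA2, had 0 reads, with 3-read limits between 0.0606 TPM (FOXI2) and 0.179 TPM (FOXL3).

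Neighbours in the order of levels were often separable. Among the 24 members at 1 TPM or more, 13 of 23 neighbouring pairs had library values that did not overlap, including every step from FOXA1 down to FOXK2 by merged-exon length. With the longest transcript as length 11 of the 13 kept their order, and FOXK2 (67.1 TPM) passed FOXO3 (38.5 TPM) and FOXK1 (55.8 TPM). With length counted in 32-base stretches found once, 10 of the 13 did, and FOXO3 (116 TPM) passed FOXP4 (56.0 TPM) and FOXK1 (64.9 TPM). FOXO4 and FOXP1 changed places under both. The other 10 pairs overlapped. Among them were FOXK2 with FOXJ3, FOXD4 with FOXO4, FOXN2 with FOXO3B, FOXO3B with FOXO6, each step from FOXC1 through FOXD2 and FOXP3 to FOXD1, and each from FOXF2 through FOXH1 to FOXD4L4. Some separated steps were small: the mean TPM of FOXO3 was 1.03 times that of FOXK2.

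Of the 18 members made of 1 exon, 5 reached 1 TPM, where 31.7% of 1104 single-exon protein-coding genes did. Of the 18 with at least 5 merged exons, 13 did, where 68.3% of 15233 protein-coding genes did. With length counted in 32-base stretches found once in the genome, the single-exon count was 9, since FOXD4L1, FOXD4L3, FOXD4L5 and FOXD4L6 then passed, and the other count was 14. FOXP2, with 35 merged exons, and the 4-exon FOXA1 lay at 0.0924 and 386 TPM. The 24 members at 1 TPM or more had a median of 4787 exon bases and 56.2% GC, and the 28 others 2547 bases and 59.7% GC. Protein-coding genes as a whole had medians of 4198 bases and 49.0% GC. No test was made of these features, since paralogs share their structure by descent.

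**Figure D3:**
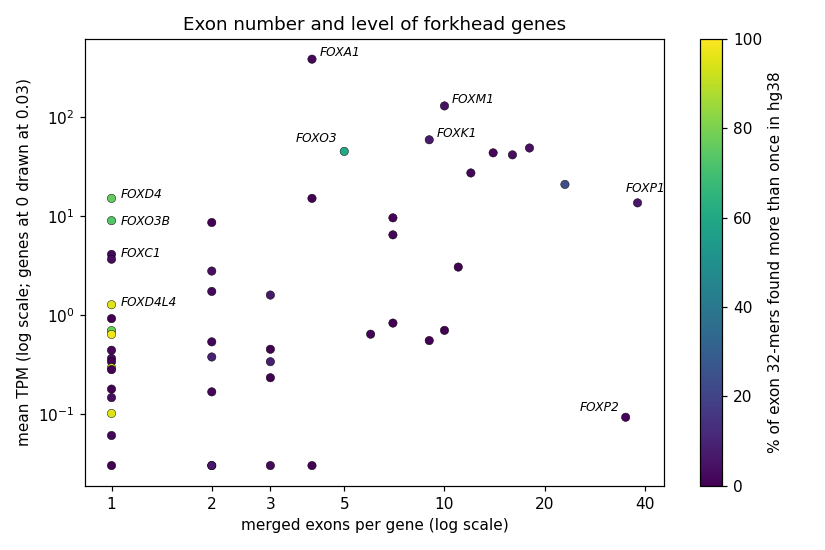
Mean TPM (log axis; the 5 genes at 0 drawn at 0.03) against the number of merged exons (log axis) for the members (1 of 52 not drawn), coloured by the percentage of exon 32-mers found more than once in hg38. Single-exon genes spread from 0 to 15.1 TPM, and the bright points among them are the FOXD4 copies and FOXO3B.

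Several members sit side by side in the genome. On chromosome 6, FOXQ1, FOXF2 and FOXC1 follow each other with gaps of 75.1 and 214 kb, at 0.919, 1.73 and 4.10 TPM. On chromosome 16, FOXF1, FOXC2 and FOXL1, with gaps of 51.8 and 6.64 kb, lay at 0.535, 0.146 and 0.167 TPM, and the library values of FOXC2 and FOXL1 overlapped. On chromosome 1, FOXE3 and FOXD2 are 17965 bases apart, at 0.0604 and 3.66 TPM. FOXL2 and FOXL2NB, 94 bases apart on chromosome 3, lay at 0.280 and 0.337 TPM with overlapping library values.

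All 24 members at 1 TPM or more had another annotated gene on their body or within 10 kb, in 66 pairs, 43 of them on opposite strands. The same count was not made over all protein-coding genes, so it is not read as a trait of forkhead genes. Besides those named above, the protein-coding neighbours were GMDS (23.7 TPM) by FOXC1, ZNG1A (12.9 TPM) by FOXD4, ZNG1E (6.48 TPM) by FOXD4L4, PPP1R16A (2944, 2595 and 2949 reads) and ZFTRAF1 (16.1 TPM) by FOXH1, C3AR1 (0.0371 TPM) by FOXJ2, AP5Z1 (11.0 TPM) by FOXK1, TEX52 (2.75 TPM) by FOXM1, IL2RG (0.385 TPM) and CXorf65 (0 reads) by FOXO4, TBC1D28 (0 reads) by FOXO3B, and PPP1R3F (9.09 TPM) by FOXP3. Antisense, intronic and divergent transcripts named after a member ranged widely. FOXN3-AS1 lay at 25.0 ± 3.14 TPM, FOXP4-AS1 at 15.0 ± 3.63, FOXD2-AS1 at 8.82 ± 1.14, FOXP1-IT1 at 3.09 ± 0.433, FOXP1-AS1 at 3.02 ± 0.704 and FOXO6-AS1 at 2.45 ± 2.05. FOXP1-DT, FOXF2-DT, FOXN3-AS2 and FOXCUT were below 1 TPM, and FOXD1-AS1 had 0 reads. Strand was not used in the counting, so a read from either strand of an exon counts for the gene annotated there. The long non-coding LINC01388 lay at 1.34 TPM, and LINC01385, LINC01386 and LINC00598 at 0.0555 TPM or less. The pseudogenes SUMO2P8, UBE2SP2, ZNF286B, CAP2P1 and RLIMP1 lay between 0.924 and 4.74 TPM, RNU4-49P at 0.593, RN7SKP107 at 0.0746 and MIR1284 at 3.88 TPM, and MIR6720 and MIR4641 had 0 reads. A further 20 neighbours carry no symbol.

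RefSeq promoter windows of 300 bases (250 before and 50 after the start, build GRCh38.p14) were found for 41 of 52 members. The median number of CpG dinucleotides was 30.5 in 20 members at 1 TPM or more, 22.0 in 21 members below and 22.0 over 15289 protein-coding genes. Shown are the 250 bases before the RefSeq start of FOXA1, the most abundant member, and FOXR2, the one with fewest CpG sites. Both were chosen after their values were seen, and each CpG is in capitals. The 2 stretches lie at chr14:37595250-37595499 (minus strand) and chrX:55623150-55623399 (plus strand) and hold 26 and 1 CpG sites. That of FOXA1 lies within the gene bounds of the count files, 37589984 to 37596059, so it is upstream of the RefSeq start only.
FOXA1: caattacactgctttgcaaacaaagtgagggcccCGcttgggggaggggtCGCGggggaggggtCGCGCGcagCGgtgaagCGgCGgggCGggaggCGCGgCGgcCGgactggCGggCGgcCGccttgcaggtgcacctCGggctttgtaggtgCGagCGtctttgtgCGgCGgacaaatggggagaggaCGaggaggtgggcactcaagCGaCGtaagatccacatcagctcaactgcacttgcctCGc
FOXR2: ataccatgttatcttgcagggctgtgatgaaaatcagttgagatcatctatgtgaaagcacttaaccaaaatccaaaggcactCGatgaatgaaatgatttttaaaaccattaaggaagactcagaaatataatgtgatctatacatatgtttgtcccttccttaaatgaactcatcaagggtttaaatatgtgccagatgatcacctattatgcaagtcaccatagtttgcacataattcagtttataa

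FOXI2, also without reads, had 24.0 CpG sites in its 300-base window. FOXA3 had 37.0, against 34.0 for FOXA1, and the most, 55.0, were in FOXK1 and FOXK2. The forkhead core motif TGTTTAC, searched on both strands, occurred in 2 of the 41 members (4.88%), FOXO4 and FOXP1, and in 3.80% of protein-coding genes with a window. FOXP1 has 6 annotated starts and so 6 windows in which to match.

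Partners and coregulators of FOXA1 were abundant. All 14 genes of that list were detected and 13 reached 1 TPM. Their median was 6.25 ± 0.0130 on the log2(TPM + 0.1) scale, against 2.46 for all protein-coding genes and 4.34 for those at 1 TPM or more. HOXB13, a homeobox factor of prostate epithelium, lay at 327 ± 2.58 TPM, GATA2, another pioneer factor, at 298 ± 7.51 and GRHL2 at 173 ± 3.99 TPM. The FOXA1 level, 386 TPM, lay above these. The members of this list and of those that follow were written down with earlier results of these data known.

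Genes around FOXM1 were all detected. The 6 partners in or bound to the MuvB complex had a median of 3.89 ± 0.108 on the log2(TPM + 0.1) scale. Highest was MYBL2, which binds the complex, at 475 ± 19.3 TPM. RBBP4 lay at 80.5 ± 3.98, LIN54 at 15.4 ± 1.45 and LIN9 at 14.1 ± 0.988 TPM. All 15 mitotic targets reached 1 TPM, with a median of 6.19 ± 0.0915. Cyclin B1 (CCNB1) lay at 187 ± 11.0 TPM, survivin (BIRC5) at 144 ± 2.14, AURKB at 104 ± 4.27 and KIF20A at 97.1 ± 1.52 TPM. FOXM1 itself, at 130.0 TPM, lay within their range of 18.8 (CDC25C) to 187 TPM.

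Regulators upstream of FOXO proteins were likewise all detected, 21 of 21, with a median of 5.39 ± 0.0410 on the log2(TPM + 0.1) scale. The 14-3-3 genes YWHAE (841 ± 42.5 TPM), YWHAG (513 ± 2.90), YWHAQ (363 ± 23.9) and YWHAZ (179.8 ± 14.2), whose proteins bind phosphorylated FOXO, were the highest. Of 17 FOXO targets 16 were matched by identifier (SOD2 was not), 15 of them were detected and reached 1 TPM, and the median was 4.47 ± 0.0540. TXNIP lay at 128 ± 9.14 TPM, the cell cycle inhibitor CDKN1A at 104 ± 0.532, CITED2 at 80.7 ± 2.95 and CDKN1B at 67.2 ± 3.92 TPM, whereas PDK4 had 22, 4 and 14 reads.

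All 9 FOXK partners were detected, with HCFC1 at 192 ± 8.67 TPM, HDAC1 at 166 ± 9.60, the glycosyltransferase OGT at 73.0 ± 3.93 and BAP1 at 66.8 ± 2.50, and a median of 5.39 ± 0.0474 on the log2(TPM + 0.1) scale. The motile cilium program of FOXJ1 was low, with a median of −0.77 ± 0.168. Of its 15 genes 11 were detected and 6 reached 1 TPM, led by DNAH5 at 7.30 ± 0.239, RFX2 at 5.23 ± 0.239, RFX3 at 2.91 ± 0.0819 and CFAP53 at 2.02 ± 0.333 TPM, and TEKT1 and DNAI2 had 0 reads. The regulatory T cell list, of which 2 of 8 were detected, had a median of −3.29 ± 0.0601, and its summed level over the libraries, 8.92 to 12.3 TPM, was mostly TNFRSF18.

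**Figure D4:**
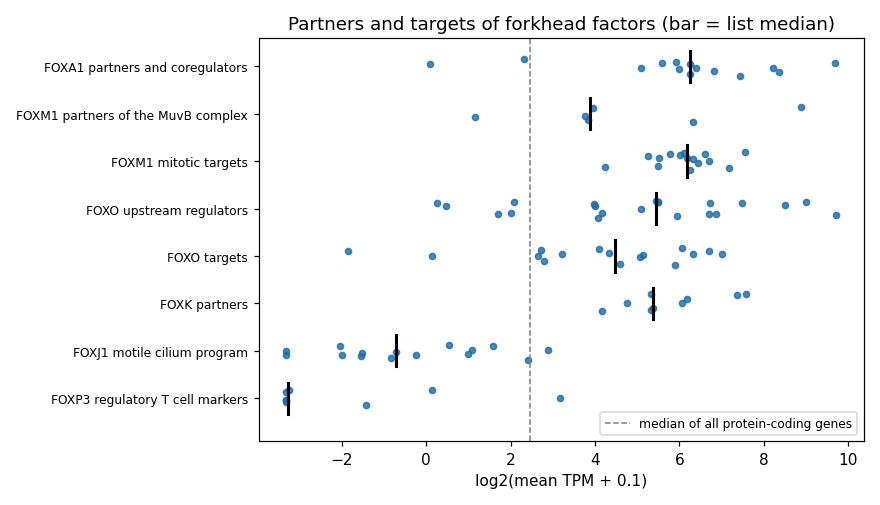
Level of each gene of the 8 lists of forkhead partners, regulators, targets and lineage markers, as log2(mean TPM + 0.1), with a black bar at the list median and the median of all protein-coding genes, 2.46, dashed. The lists of FOXA1, FOXM1, FOXO and FOXK centre to the right of the dashed line; the cilium and regulatory T cell lists centre to its left. Protein-coding genes at 1 TPM or more had a median of 4.34 (not drawn). The FOXM1 partners, at 3.89, lay below that, and the FOXO targets, at 4.47, lay near it.

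Replicate libraries agreed closely for abundant members and loosely for rare ones. Spread was taken as the SD of log2 CPM, a gene's reads relative to the TMM-scaled library size, with a prior count of 2. Its median was 0.157 over the 36 detected members, with a median of 243 reads, and 0.122 over all 21039 detected genes, with a median of 393 reads. At 10 TPM or more the medians were 0.0450 for 12 members, with a median of 4791 reads, and 0.0659 for 9657 genes, with 2512 reads. Under 10 TPM they were 0.303 for 24 members, with a median of 42.8 reads, and 0.238 for 11382 genes, with 64.3 reads. FOXK1 varied least, with 254, 253 and 255 TMM-scaled CPM, with 12165 reads or more in each library. FOXP2, with 20, 10 and 44 reads, varied most.

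**Figure D5:**
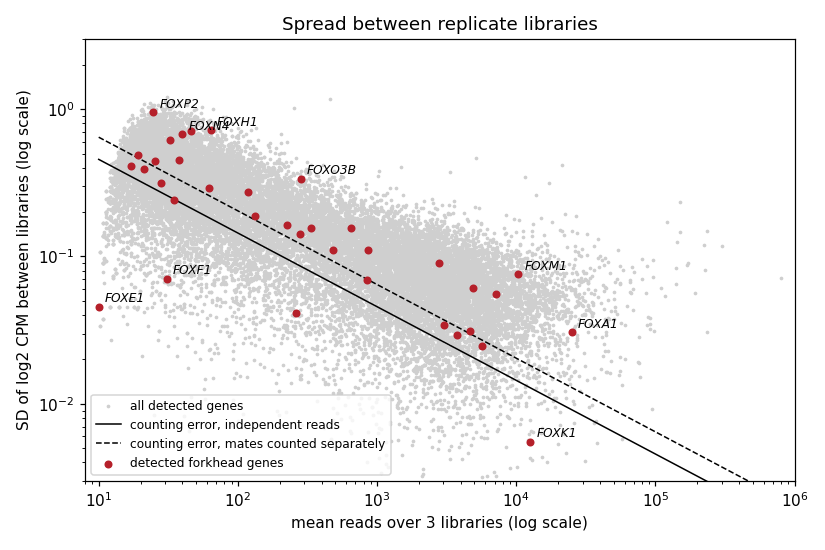
SD of log2 CPM between the 3 libraries against mean reads, both on log axes, for all detected genes (grey) and the 36 detected forkhead genes (red). The lines give the SD that counting error alone would leave, with reads independent (solid) or both mates of a fragment counted (dashed); FOXM1 and FOXO3B lie above both lines, FOXK1, FOXF1 and FOXE1 below.

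Whether a gene varied beyond counting error was asked with a chi-square test of homogeneity of its 3 counts, Benjamini-Hochberg adjusted over all detected genes. It called 15 of 36 detected members (41.7%), against 46.1% of all detected genes. With the statistic divided by 2, which allows for mates counted separately, 8 members (22.2%) were called, against 17.6%. Both shares lie near the background. Those 8 were FOXM1 (adjusted chi-square p = 2.00e-05), FOXH1 (0.00196), FOXO3B (0.00405), FOXP2 (0.0175), FOXA1 (0.0261), FOXJ2 (0.0296), FOXK2 (0.0366) and FOXN4 (0.0468). FOXP4, FOXD4L4, FOXO1, FOXN1, FOXN2, FOXO6 and FOXD1 were called only with reads taken as independent.

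With reads taken as independent, 0 of the 15 calls remained when each replicate was left out in turn. A call that rests on 1 library lying apart is lost once that library is left out, so with 3 libraries this says little about the members. The share of all detected genes called also fell, from 46.1% to 33.8%, 24.9% and 24.6% without replicates 1, 2 and 3. Without replicate 3 the calls of FOXM1 (adjusted chi-square p = 0.101), FOXA1 (0.386), FOXO3B (0.0965), FOXP2 (0.228), FOXO1 (0.990), FOXN2 (0.794), FOXN1 (0.234) and FOXO6 (0.447) were lost. Without replicate 2 those of FOXH1 (0.171), FOXK2 (0.185), FOXP4 (0.324) and FOXD1 (0.936) were lost, and without replicate 1 those of FOXJ2 (0.756), FOXN4 (0.212), FOXD4L4 (0.940), FOXN1 (0.129) and FOXO6 (0.191). For FOXA1 the difference was small and its direction depended on the scale: TMM-scaled CPM were 502, 496 and 517, highest in replicate 3, and TPM were 384, 389 and 385, highest in replicate 2. Scaled by total reads alone, FOXA1 was not called (0.0696). For FOXM1 replicate 3 was highest on both scales, at 222 TMM-scaled CPM against 206 and 200.2.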

How the data were processed

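RNA of 3 C4-2 libraries, all in 1 group by their titles, was measured; per the labels' protocols, 770 ng of Trizol-extracted RNA was depleted of ribosomal RNA and made into strand-specific libraries. Per the submitters' processing notes, the tools were STAR 2.7.0f, featureCounts of Subread 1.6.3, Trim Galore, FastQC and DESeq2 1.26.0, with GRCh38. The deposited values are raw counts, made with featureCounts 1.6.3 over exons of Ensembl release 90 genes, per the file headers; the recorded options set only annotation, output and threads, so strand was ignored and reads placed on several loci or on exons of several genes were dropped.

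Names and biotypes came from GENCODE release 44 by identifier (57532 of 58302 matched), the same GRCh38 build. TPM used the exon length of the files over all genes, with a pseudocount of 0.1 TPM on the log2 scale. TMM factors came from edgeR 4.0.16 and size factors from DESeq2 1.42.0 in R 4.3.3; other steps used Python 3.11.15, numpy 2.4.6, pandas 2.3.3, scipy 1.17.1 and matplotlib 3.10.9. The threshold was an adjusted p of 0.05. The chi-square test was tested on simulated data. Exon 32-mers of members were counted on both strands of the assembled chromosomes of hg38, and promoter sequences are from RefSeq.

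Members, gene lists and tests were chosen with earlier results of these data known. A few genes and sequences are not reported here. Otherwise every member at 1 TPM or more was named with values, with reads per library from 10 TPM, all others in their subfamily, neighbours within 10 kb where they carry a symbol, and of each pathway list the 4 highest and those at 0 reads. Exon length in unique 32-mers, and the longest transcript for exon classes, order and subfamily sums, were alternatives added after seeing the data. The others changed the read minimum, the TPM denominator, gene length, pseudocount, library scaling, low-count filter and read independence, and left out each replicate.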

Additional observations from a re-analysis of the deposited data

How the results depend on the processing

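The number of detected members, 36, became 41 with a minimum of 5 reads and 30 with 20, and 36 to 39 with 1 replicate left out. The number at 1 TPM or more, 24, lay between 24 and 26 with TPM over protein-coding genes, the longest transcript as length or 1 replicate left out, and was 29 with exon length counted in 32-mers found once in hg38, an alternative chosen after seeing the data. The number of members varying between libraries, 15 of 36, was 15 with DESeq2 size factors and 14 with total reads. It was 18 of 47 without the low-count filter, 8 with the statistic divided by 2, and 7 to 11 with 1 replicate left out, lowest without replicate 3. The share of all tested genes called was 46.1% in the main setting and 46.2%, 46.2%, 38.2% and 17.6% in those 4 alternatives. With 1 replicate left out it was 24.6% to 33.8%, also lowest without replicate 3. Why the share fell, and fell unequally, was not tested. FOXK1 minus FOXK2, 0.44, turned to −0.27 with the longest annotated transcript as length. The other 9 paralog differences kept their sign under all alternatives run. Over them, FOXO1 minus FOXO3 ranged from −4.08 to −2.63. TPM over protein-coding genes alone raised member levels 1.31 to 1.32 times, and the longest transcript as length moved them 0.266 times (FOXO3B) to 1.57 times (FOXP2). No paired analysis was possible because there is 1 group. Below about 10 reads a library, depth limits what can be said of a member.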
